A study of Mus musculus with 24 samples.

Results

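Mitochondrially encoded genes were taken as the genes of the GRCm38 annotation (GENCODE M21) whose symbol starts with mt-. The annotation holds 37 of them on chromosome M: 13 protein genes, 2 ribosomal RNA genes and 22 tRNA genes. The 13 protein genes had reads in both cell lines, among 15839 genes with reads in the series. The 2 ribosomal RNA genes and the 22 tRNA genes had no row in either count table and were not analysed here. Every statement on mitochondrial reads below therefore concerns mitochondrial mRNAs.

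The mitochondrial genome is a small circle that codes for core subunits of respiratory complexes I, III and IV and of the ATP synthase, the machines that pump protons across the inner membrane and use their return flow to make ATP. Each of its strands, named heavy and light, is transcribed as a long precursor that is cut at the tRNAs into separate RNAs, so that neighbouring genes share a transcription event while the level of each mRNA also depends on its own processing and stability. All other subunits of these complexes are coded in the nucleus and imported. Both muscle and motor neurons depend heavily on this respiration.

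The libraries came from 2 mouse lines, both labelled wild type. C2C12 is a line of skeletal muscle myoblasts that fuse into myotubes in culture, and NSC34 is a motor-neuron-like hybrid line. The 4 groups were C2C12 co-culture, C2C12 control, NSC34 co-culture and NSC34 control, with 6 libraries each. Co-culture lasted 3 days, controls were grown without the other line, and Trizol-extracted RNA was sequenced on the MinION, a Nanopore instrument. How the lines were separated after co-culture is not in the labels, nor is it stated that libraries came from separate cultures, so p-values measure the spread between these libraries, which may be technical. In bulk samples fewer cells of a type and less RNA per cell cannot be told apart.

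C2C12 libraries held 121154 to 658075 reads, of which 3823 to 19133 were mitochondrial. NSC34 libraries held 88 to 30314 reads, of which 5 to 991 were mitochondrial. NSC34 control 1, with 5 mitochondrial reads, and NSC34 control 6, with 23, stand apart by depth, and the NSC34 control values that rest on them are also given for the other 4 controls. A gene with no read in a NSC34 library may have made up to 0.303% of the mitochondrial reads in the deepest one and up to 60% in the shallowest, at 3 reads of the total. All 15 skeletal muscle markers had reads in both C2C12 groups. NSC34 libraries had 24 reads on 3 of these 15 markers, 20 of them on Chrna1, and 0 on Myog, Acta1 and Mylpf. The neuron and motor neuron list summed to 2672 CPM in NSC34 co-culture and 2396 CPM in NSC34 control, led by Uchl1, Tubb3 and Prph, against 206 and 227 CPM in C2C12 co-culture and control. Within that list Stmn2 went the other way, with 193 and 176 reads in C2C12 co-culture and control and 0 in NSC34, as did Nefm with 9 and 4 against 0. The defining motor neuron genes were near 0 in NSC34, with 1 read on Chat, 3 on Isl1 and 0 on Slc18a3 and Mnx1.

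Mitochondrial mRNAs took a similar small part of the RNA in every group. In C2C12 they made up 2.88%, 3.43% and 3.97% of all reads (lowest, median and highest library) in co-culture, against 2.91%, 3.23% and 3.56% in control. In NSC34 they made up 2.95%, 3.93% and 4.85% in co-culture, against 2.80%, 4.41% and 5.90% in control (3.22% to 5.90% without controls 1 and 6). The co-culture and control ranges overlapped in both lines. Group means were 3.40 ± 0.438% in C2C12 co-culture and 3.25 ± 0.225% in C2C12 control, and 3.89 ± 0.745% in NSC34 co-culture and 4.40 ± 1.29% in NSC34 control (SD, n = 6 each). Without controls 1 and 6 the NSC34 control mean was 4.48 ± 1.16% (SD, n = 4). Pooled over libraries, 106244 of 3309635 C2C12 reads were mitochondrial, or 3.21% (exact binomial 95% interval 3.19 to 3.23). Of the 70865 NSC34 reads 2731 were mitochondrial, or 3.85% (3.71 to 4.0). Such intervals cover counting error only, and the sum over the genes was not tested.

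**Figure D1:**
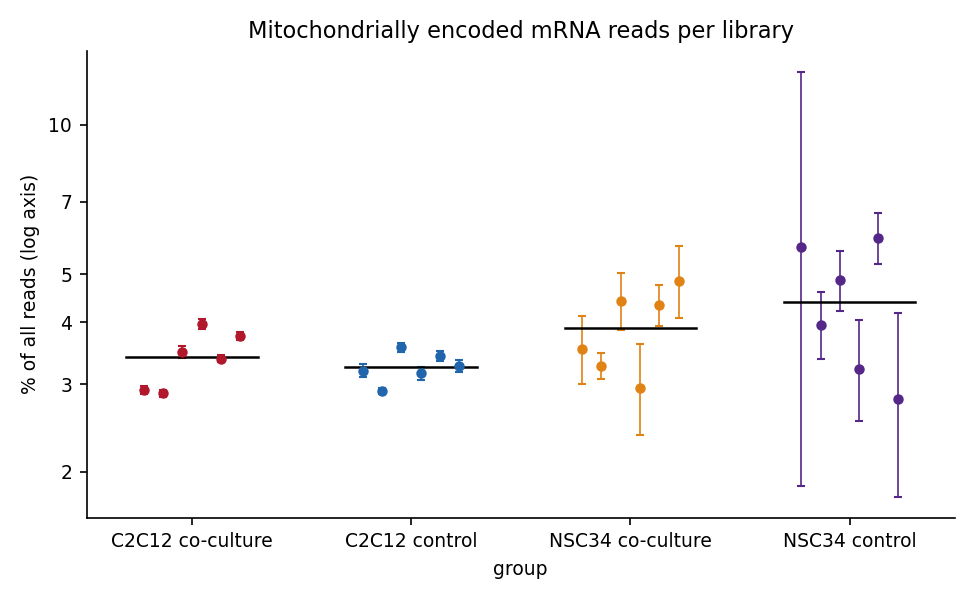
Percent of all reads on the 13 mitochondrial protein genes, on a log axis, for the 6 libraries of each group (points, with exact 95% binomial intervals) and the group mean (line). The groups overlap, and the interval of NSC34 control 1, with 88 reads, spans 1.87% to 12.8%.

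The models of the 13 genes, some of which share an mRNA, were read very unequally. By share of reads mt-Nd4 led in both lines, with 43.1% of the mitochondrial reads in C2C12 and 36.9% in NSC34, and mt-Atp8 held 9.70% and 17.9%. Per kilobase of the annotated model mt-Atp8 came first, a place that rests on dividing by its 204 bases although it shares its mRNA with mt-Atp6. On that scale it stood at 37.1% of the summed reads per kilobase in C2C12 and 54.0% in NSC34, and mt-Nd4 came second with 24.4% and 16.5%. The level of mt-Nd1 followed in C2C12, with 9.01% before 8.66% for mt-Cytb, while mt-Cytb stood at 9.55% before 4.34% for mt-Nd1 in NSC34. At the low end per kilobase, mt-Nd5 ranked 12 with 0.421% in C2C12 and 0.445% in NSC34, and mt-Nd4l ranked 13 with 0.257% and 0.380%. In reads mt-Nd5 was above mt-Nd3, with 1045 against 778 in C2C12 and 36 against 22 in NSC34. The largest moves in per-kilobase rank between the lines were those of mt-Co1, rank 5 in C2C12 and 11 in NSC34, and of mt-Nd2, rank 10 and 5. Across the 13 genes, read shares of the lines had a Pearson r of 0.931 and a Spearman rho of 0.89. Within a line, co-culture and control shares had an r of 0.999 in C2C12 and 0.984 in NSC34. These correlations are across genes that share libraries and precursors, and they describe the libraries only. In C2C12 the length-corrected share had a rank correlation of 0.126 with gene length and -0.209 with position along the genome, again as a description over 13 genes.

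**Figure D2:**
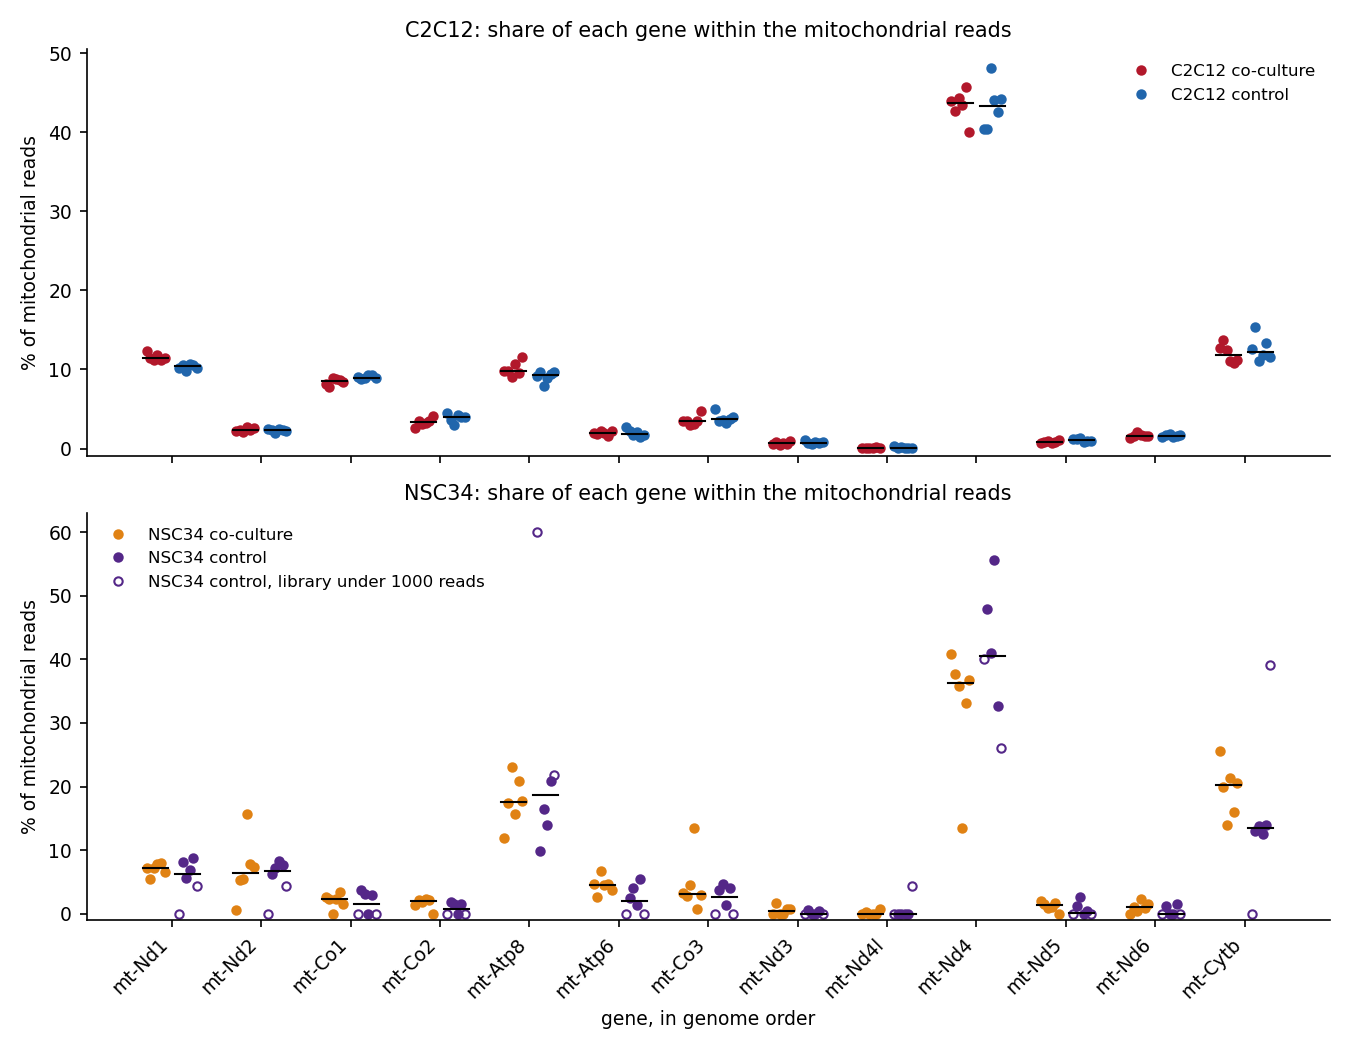
Share of each gene within the mitochondrial reads of a library, for C2C12 (upper panel) and NSC34 (lower panel), with co-culture left of control, genes in genome order and the group median as a line. The gene mt-Nd4 is highest in C2C12, with 40.1% to 48.1% of the reads, and open points mark the 2 NSC34 control libraries under 1000 reads.

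Complex I, NADH dehydrogenase, takes electrons from NADH, and 7 of its core membrane subunits are coded in the mitochondrion. Together they took 59.9% of the mitochondrial reads in C2C12 and 53.2% in NSC34, pooled over libraries. Most of these reads were on mt-Nd4, a proton-pumping subunit. The share of mt-Nd4 was 40.1%, 43.7% and 45.8% (lowest, median, highest) in C2C12 co-culture and 40.4%, 43.4% and 48.1% in C2C12 control. It was 13.5%, 36.3% and 40.8% in NSC34 co-culture and 26.1%, 40.5% and 55.6% in NSC34 control, or 32.6% to 55.6% without controls 1 and 6. The groups overlapped within each line, and the lowest value belonged to NSC34 co-culture 4, which also held the highest mt-Nd2 share.

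The gene mt-Nd1 codes for the subunit at the junction of the membrane arm and the arm that binds NADH. Its share in C2C12 co-culture was 11.2%, 11.2%, 11.4%, 11.4%, 11.9% and 12.4%, in rising order, against 9.78%, 10.1%, 10.2%, 10.5%, 10.6% and 10.8% in C2C12 control. All 6 co-culture libraries lay above all 6 controls. In NSC34 its share was 5.45%, 7.24% and 7.99% in co-culture and 0%, 6.29% and 8.79% in control, or 5.64% to 8.79% without controls 1 and 6. Every NSC34 library was below every C2C12 library, control 1 with 0 of only 5 mitochondrial reads. The gene mt-Nd2, another proton-pumping subunit, went the other way between the lines, with 2.14%, 2.32% and 2.73% in C2C12 co-culture and 2.01%, 2.38% and 2.49% in C2C12 control. NSC34 co-culture had 0.658%, 6.39% and 15.7%, and NSC34 control 0%, 6.70% and 8.33%, or 6.21% to 8.33% without controls 1 and 6. The lines overlapped at the low end, in NSC34 control 1 and co-culture 1, while the other 10 NSC34 libraries lay above all 12 C2C12 libraries.

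The remaining complex I mRNAs were scarce. The share of mt-Nd5, the largest proton-pumping subunit, was 0.692%, 0.842% and 1.09% in C2C12 co-culture and 0.837%, 1.07% and 1.35% in C2C12 control, and it had 28 reads in NSC34 co-culture and 8 in NSC34 control. The small hinge subunit mt-Nd3 had 438 and 340 reads in C2C12 co-culture and control, and 20 and 2 in NSC34 co-culture and control. Of those 20 NSC34 reads, 16 came from the deepest library, co-culture 2. The only protein gene of the light strand, mt-Nd6, had 1.30%, 1.62% and 2.08% in C2C12 co-culture and 1.41%, 1.60% and 1.85% in C2C12 control, with 19 and 6 reads in NSC34 co-culture and control. In human cells its mRNA is known to lack the poly(A) tail that the other mitochondrial mRNAs carry. Strand use in the counting is not given in the sources used here, so reads of mt-Nd6 and of RNA antisense to it cannot be told apart. The 3′ ends of mt-Nd5 and mt-Nd6 are shown because they face each other and share 14 bases, in capitals, each end given 5′ to 3′ on its own strand (GRCm38, chrM:13532-13565 on the plus strand and chrM:13552-13585 on the minus strand).
mt-Nd5 end: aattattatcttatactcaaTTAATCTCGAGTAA
mt-Nd6 end: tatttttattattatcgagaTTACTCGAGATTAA
In C2C12 mt-Nd5 had 507 reads against 940 on mt-Nd6 in co-culture, and 538 against 776 in control. In NSC34 the counts were 28 against 19 in co-culture and 8 against 6 in control.

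The genes mt-Nd4l and mt-Nd4 are carried on 1 mRNA with 2 reading frames, and their reading frames overlap by 7 bases (GRCm38, chrM:10142-10173 and chrM:10167-10198, plus strand). The junction is shown, with the shared bases in capitals, because a read across it could be counted to either model.
mt-Nd4l end: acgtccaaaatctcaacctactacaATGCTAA
mt-Nd4 start: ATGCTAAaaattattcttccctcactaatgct
The reads of the 2 models lay far apart, as did their per-kilobase values above. The model of mt-Nd4l, a small membrane subunit, had 52 reads in C2C12 co-culture, 52 in C2C12 control, 4 in NSC34 co-culture and 1 in NSC34 control. The model of mt-Nd4 had 25521, 20239, 714 and 294 in the same groups. In C2C12 that was 440 mt-Nd4 reads per mt-Nd4l read, and in NSC34 202.

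Complex III has a single mitochondrial subunit, cytochrome b (mt-Cytb), which passes electrons from ubiquinol towards cytochrome c. Its share was 10.8%, 11.8% and 13.7% in C2C12 co-culture and 11.1%, 12.2% and 15.3% in C2C12 control. It was 14%, 20.2% and 25.7% in NSC34 co-culture and 0%, 13.4% and 39.1% in NSC34 control. In co-culture all 6 NSC34 libraries lay above all 6 C2C12 libraries. Both extremes of the NSC34 controls were the shallow libraries, and the other 4 held 12.5% to 13.9%.

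Complex IV, cytochrome c oxidase, reduces oxygen to water, and its 3 largest subunits are mitochondrial. They took 15.8% of the mitochondrial reads in C2C12 and 7.36% in NSC34. The catalytic subunit mt-Co1 held 7.77%, 8.56% and 8.91% in C2C12 co-culture and 8.73%, 8.97% and 9.30% in C2C12 control, against 0%, 2.28% and 3.39% in NSC34 co-culture and 0%, 1.47% and 3.73% in NSC34 control. The lines did not overlap, but of the 3 NSC34 controls at 0 for mt-Co1, controls 1 and 6 were too shallow to show the C2C12 level. The subunit mt-Co2, which receives electrons from cytochrome c, held 2.65%, 3.35% and 4.10% in C2C12 co-culture and 2.99%, 3.99% and 4.53% in C2C12 control, against 0%, 1.96% and 2.25% in NSC34 co-culture and 0%, 0.733% and 1.86% in NSC34 control. The lines did not overlap here either, and the 3 NSC34 controls at 0, namely 1, 4 and 6, were all too shallow to show a share as in C2C12. The third subunit, mt-Co3, held 2.98%, 3.47% and 4.69% in C2C12 co-culture and 3.19%, 3.70% and 5.05% in C2C12 control, against 0.726%, 3.12% and 13.5% in NSC34 co-culture and 0%, 2.56% and 4.62% in NSC34 control, or 1.39% to 4.62% without controls 1 and 6. For mt-Co3 the lines overlapped, although it is read from the same strand as mt-Co1 and mt-Co2.

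The ATP synthase has 2 mitochondrial subunits, both in the membrane part through which protons flow back: mt-Atp6, which forms the proton path, and the small mt-Atp8. Together they took 11.6% of the mitochondrial reads in C2C12 and 21.7% in NSC34. They lie on 1 mRNA, and their reading frames share 43 bases (GRCm38, chrM:7912-7969 for the end of mt-Atp8 and chrM:7927-7984 for the start of mt-Atp6, plus strand). The overlap is shown in capitals, because it makes up 43 of the 204 bases of the mt-Atp8 model, and how reads over it were assigned is not stated.
mt-Atp8 end: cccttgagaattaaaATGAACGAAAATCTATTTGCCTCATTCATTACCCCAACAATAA
mt-Atp6 start: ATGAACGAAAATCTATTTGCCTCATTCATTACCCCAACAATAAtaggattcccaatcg
The share of mt-Atp8 was 9.09%, 9.85% and 11.5% in C2C12 co-culture and 7.88%, 9.25% and 9.67% in C2C12 control, against 11.8%, 17.5% and 23.1% in NSC34 co-culture and 9.94%, 18.6% and 60% in NSC34 control, or 9.94% to 20.9% without controls 1 and 6. That of mt-Atp6 was 1.64%, 1.94% and 2.20% in C2C12 co-culture and 1.49%, 1.86% and 2.66% in C2C12 control, against 2.62%, 4.55% and 6.79% in NSC34 co-culture and 0%, 1.94% and 5.49% in NSC34 control, or 1.39% to 5.49% without controls 1 and 6. Both models were higher in NSC34, and their ratio was similar in the lines, with 5.02 mt-Atp8 reads per mt-Atp6 read in C2C12 (10303 and 2052 reads) and 4.69 in NSC34 (488 and 104 reads).

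Near-identical nuclear copies of 7 of the 13 genes had reads of their own in C2C12. Whether these reads came from the mitochondrial mRNAs or from transcripts of the copies was not tested. A block of pseudogenes on chromosome 1 (GRCm38, 24611535 to 24616197, minus strand) repeats a stretch of the mitochondrial genome at 99.7% to 100% identity. In C2C12, 716 reads were counted to Gm28438 and 778 to mt-Nd3, which it matches over 345 bases, so the copy held 47.9% of both (exact 95% interval 45.4 to 50.5). This share was 43.5% to 54.5% in C2C12 co-culture libraries and 41.7% to 51.3% in C2C12 control libraries. The copy Gm28437 held 14% of the reads on it and mt-Co3, Gm10925 8.84% with mt-Atp6, Gm28661 5.85% with mt-Co2, Gm29216 4.64% with mt-Co1, and Gm28439 0.0568% with mt-Nd4. The copy of mt-Nd4l, Gm10222, had 8 reads, or 7.14% of the reads on it and its gene, and 3 copies outside chromosome 1 had 7 reads in all. In NSC34 the copies had 39 reads in all, 13 of them on Gm28437 in co-culture 5, where mt-Co3 had 3 reads. Reads on all nuclear copies found equalled 2.13% of the mitochondrial reads in C2C12 and 1.43% in NSC34. Over the aligned bases, Gm28438 differs from mt-Nd3 at 1 position (T3C, counted from the first base of mt-Nd3) and Gm29216 from mt-Co1 at 1 position (A1066T, counted from the first base of mt-Co1). These sites are shown with the differing base in capitals, because they are the only differences within the aligned bases. They lie at chrM:9459-9481 and chr1:24613097-24613119 for the first pair and chrM:6390-6413 and chr1:24616165-24616188 for the second (GRCm38, chrM on the plus strand and chr1 on the minus strand).
mt-Nd3: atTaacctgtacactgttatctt
Gm28438: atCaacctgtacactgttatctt
mt-Co1: ggaAttgttttatccaactcatcc
Gm29216: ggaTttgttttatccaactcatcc
The levels of these 7 genes are uncertain by the share of their copies, which is large for mt-Nd3.

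**Figure D3:**
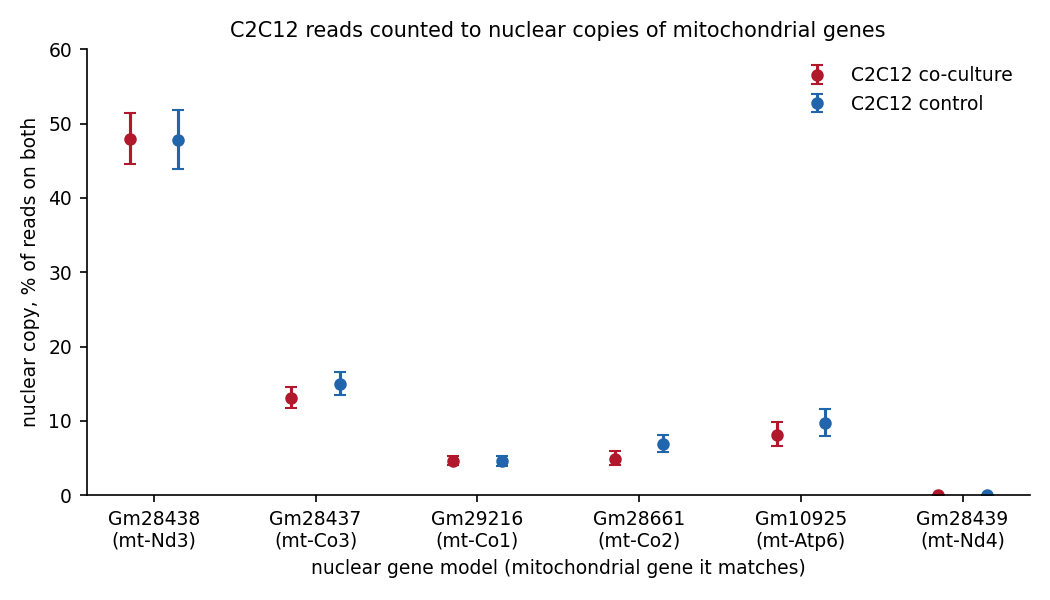
Reads counted to a nuclear copy as a percent of the reads on the copy and its mitochondrial gene, in C2C12 co-culture and C2C12 control (pooled over 6 libraries, bars are exact 95% binomial intervals). The copy of mt-Nd3 holds 48.0% in co-culture and 47.9% in control, and the copy of mt-Nd4 under 0.1%.

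The first comparison asked what 3 days of co-culture changed in the mitochondrial mRNAs of C2C12. None of them passed the test. Of the 13 genes 12 had enough reads to be tested, mt-Nd4l being under the filter, and 0 of these 12 rose or fell by edgeR's quasi-likelihood test at an adjusted p under 0.05, whereas 37 of all 2570 tested genes did, or 1.44% (0.817% higher and 0.623% lower). At an unadjusted p under 0.05, 2 of the 12 were on the higher side, mt-Nd1 and mt-Atp8, against 5.88% of all tested genes on that side and 378 of 2570 on either. The level of mt-Nd1 was 3932 ± 501 CPM in co-culture and 3358 ± 193 CPM in control (SD, n = 6 each), which is 0.22 higher in log2 (95% interval 0.05 to 0.39, adjusted p = 0.176 by edgeR). That of mt-Atp8 was 3442 ± 667 CPM in co-culture and 2950 ± 184 CPM in control, also 0.22 higher in log2 (0.01 to 0.43, adjusted p = 0.313 by edgeR). With a trend of GC content removed, an alternative added after seeing the data, both passed on the higher side, mt-Nd1 at 0.36 (edgeR adjusted p = 0.0283) and mt-Atp8 at 0.42 (0.0297), among 0.817% of tested genes higher under that setting. The lowest fold change was that of mt-Nd5, -0.30 (-0.63 to 0.02, edgeR adjusted p = 0.376). The other 9 lay between -0.13 (mt-Co2) and 0.11 (mt-Nd2), and the widest of their intervals, that of mt-Nd3, ran from -0.35 to 0.42.

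Set against the mitochondrial reads alone, which removes any change in their total, 0 of the 12 passed as well (34 of 2570 genes, or 1.32%, passed on this scale, 0.195% higher and 1.13% lower). The share of mt-Nd1 averaged 11.6 ± 0.459% in co-culture and 10.3 ± 0.360% in control (SD, n = 6 each), which is 0.16 higher in log2 (SE 0.105, adjusted p = 0.641 by edgeR). It was the one gene of the 13 whose groups did not overlap in share, which held for 0.195% of all tested genes on the higher side and 0.661% on the lower side. For nuclear genes this measure is their reads over the mitochondrial reads. It moves with the mitochondrial total and is not a like measure for mt-Nd1. The SE and p of the shares draw on the spread of all 2570 tested genes, so they also carry the spread of that total. They do not measure the spread of the mt-Nd1 share alone, and the lack of calls does not show that the mix was unchanged. The share of mt-Nd5 averaged 0.861 ± 0.156% in co-culture and 1.08 ± 0.184% in control, a log2 difference of -0.35 (SE 0.157, unadjusted p = 0.0317 and adjusted p = 0.35 by edgeR). Its groups overlapped. The shares of mt-Co1, mt-Co2 and mt-Co3, all of complex IV, had fold changes of -0.09, -0.21 and -0.12 on the log2 scale and adjusted p of 0.636 or more by edgeR.

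**Figure D4:**
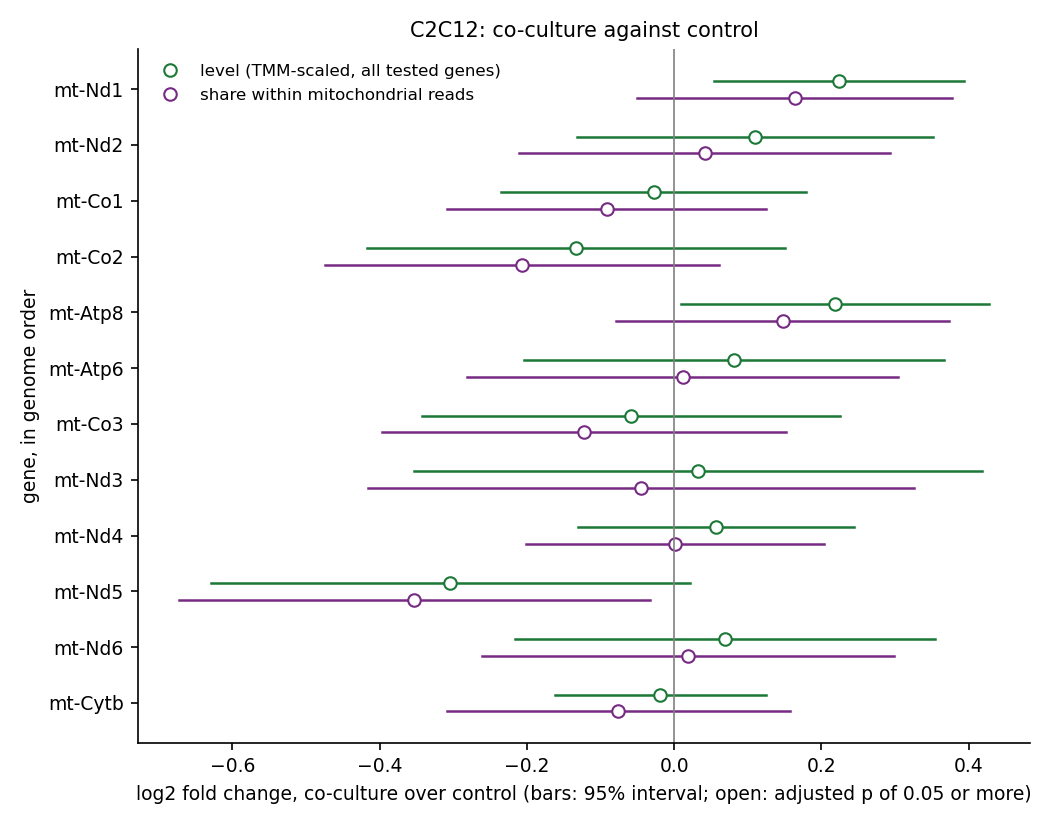
Log2 fold change of the 12 tested genes in C2C12, co-culture over control, with 95% intervals, for the level scaled over all tested genes (green) and for the share within mitochondrial reads (purple). All points are open, since no gene passed, and mt-Nd1 and mt-Nd5 lie farthest from 0 on either side.

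In NSC34 the reads allowed a test of 5 of the 13 genes, and none passed. Of the 49 genes tested in all, 0 passed by edgeR on either scale (0%), with 1 under an unadjusted p of 0.05 for levels and 2 for shares, and DESeq2 gave 0 as well. Within the mitochondrial reads mt-Cytb differed by 0.34 in log2 (95% interval -0.35 to 1.04) and mt-Nd4 by -0.31 (-0.98 to 0.36), both with an adjusted p of 0.924 by edgeR. Those of mt-Atp8, mt-Nd1 and mt-Nd2 were 0.06, -0.04 and -0.09. Changes within these intervals are not excluded at this depth.

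Between the lines the mix of mitochondrial mRNAs differed. Within the mitochondrial reads, C2C12 had more of mt-Co1 and mt-Co2, and less of mt-Nd2, mt-Atp8 and mt-Atp6, than NSC34, in co-culture and in control alike. In co-culture 8 of the 12 tested genes passed by edgeR, 4 higher and 4 lower in C2C12, among 48.5% of all 1328 tested genes (28.5% higher and 20% lower). In control 5 of 12 passed, 2 higher and 3 lower, among 32.5% of tested genes (25.6% higher and 6.85% lower). Of these 12 genes 5 also had enough reads within NSC34 alone. The other 7, mt-Co1, mt-Co2, mt-Co3, mt-Atp6, mt-Nd3, mt-Nd5 and mt-Nd6, were under the filter within NSC34 alone. They were tested between the lines because the filter of the joined tables used the libraries of both lines. Their NSC34 reads were few, from 22 for mt-Nd3 to 104 for mt-Atp6. Calls between the lines were common among all genes, and the counts of 8 and 5 in 12 are not particular to the mitochondrial mRNAs.

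The fold change farthest from 0 was that of mt-Co1, the catalytic subunit of complex IV, one of the genes under the filter within NSC34 alone. Pooled over libraries it held 8.34% of the mitochondrial reads in C2C12 co-culture and 2.25% in NSC34 co-culture (45 reads, exact 95% interval 1.64 to 3.00), and 8.93% in C2C12 control and 2.74% in NSC34 control (20 reads, 1.68 to 4.21). Its share within the mitochondrial reads was higher in C2C12 by 1.94 in log2 in co-culture (SE 0.256, adjusted p = 1.19e-08 by edgeR) and by 1.74 in control (SE 0.325, adjusted p = 3.8e-05). That of mt-Co2 was higher by 0.85 in co-culture (SE 0.266, edgeR adjusted p = 0.00642) and by 1.5 in control (SE 0.408, edgeR adjusted p = 0.00391), where NSC34 had 10 reads in 3 of 6 libraries. The third complex IV mRNA, mt-Co3, had fold changes of 0.11 and 0.08 with intervals from -0.47 to 0.69 in co-culture and -0.67 to 0.83 in control, and did not pass. Adding the reads of the nuclear copies to their genes, an alternative added after seeing the data, left mt-Co1 at 1.96 and 1.79 and mt-Co2 at 0.83 and 1.19, in co-culture and in control.

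On the other side, mt-Nd2 of complex I was lower in C2C12, with a log2 difference of -1.41 in co-culture (SE 0.225, adjusted p = 9.05e-07 by edgeR) and -1.61 in control (SE 0.291, adjusted p = 2.18e-05). Both ATP synthase models were lower in C2C12. Since they lie on 1 mRNA, their calls are not separate results. The share of mt-Atp8 differed by -0.85 in log2 in co-culture (SE 0.172, edgeR adjusted p = 5.72e-05) and -0.88 in control (SE 0.21, edgeR adjusted p = 0.00103). That of mt-Atp6 had -1.07 in co-culture (SE 0.242, edgeR adjusted p = 0.000255) and -0.95 in control (SE 0.339, edgeR adjusted p = 0.0287). Without NSC34 control 5, the control with the most mitochondrial reads, mt-Atp6 and mt-Atp8 no longer passed in control (edgeR adjusted p = 0.427 and 0.0524, log2 fold changes -0.53 and -0.71), and without NSC34 control 3 mt-Atp6 did not (0.133).

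Another 3 genes passed in co-culture, the comparison with more NSC34 reads. The share of mt-Nd1 was higher in C2C12 by 0.77 in log2 (SE 0.178, adjusted p = 0.00033 by edgeR), against 0.50 in control (edgeR adjusted p = 0.0702). That of mt-Cytb had a fold change of -0.68 in co-culture (SE 0.175, edgeR adjusted p = 0.00112) and of -0.22 in control (edgeR adjusted p = 0.661). That of mt-Nd6 was higher by 0.78 (SE 0.335, edgeR adjusted p = 0.0494), and by 0.97 in control (edgeR adjusted p = 0.159). The call of mt-Nd6 lay at the threshold, and its adjusted p was as high as 0.197 among the alternatives. The genes mt-Nd3, mt-Nd4 and mt-Nd5 passed in neither condition by edgeR (mt-Nd4 did by DESeq2 in co-culture, adjusted p = 0.0146), with log2 fold changes of -0.37, 0.36 and -0.68 in co-culture and 1.44, 0.06 and 0.00 in control.

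In shares by library, mt-Co1, mt-Co2 and mt-Nd1 were higher in C2C12 co-culture than in NSC34 co-culture without overlap, as were 20.6% of tested genes. Here too nuclear genes were taken as their reads over the mitochondrial reads. The shares of mt-Atp8, mt-Atp6 and mt-Cytb were lower without overlap, as were 4.59% of tested genes. In control mt-Co1, mt-Co2 and mt-Nd1 were again higher and mt-Atp8 lower without overlap, where 24.5% of tested genes were higher and 0.301% lower. There 3 reads made 60%, 13% and 4.17% of the mitochondrial reads in NSC34 controls 1, 6 and 4, so nothing is read from the lack of overlap in control. With NSC34 control 1 and control 6 left out, the same 5 genes passed in control, and in co-culture all 8 but mt-Nd6, whose adjusted p was 0.0705 by edgeR. The lines were deposited as separate count tables, so line and any difference in handling between the tables cannot be told apart.

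**Figure D5:**
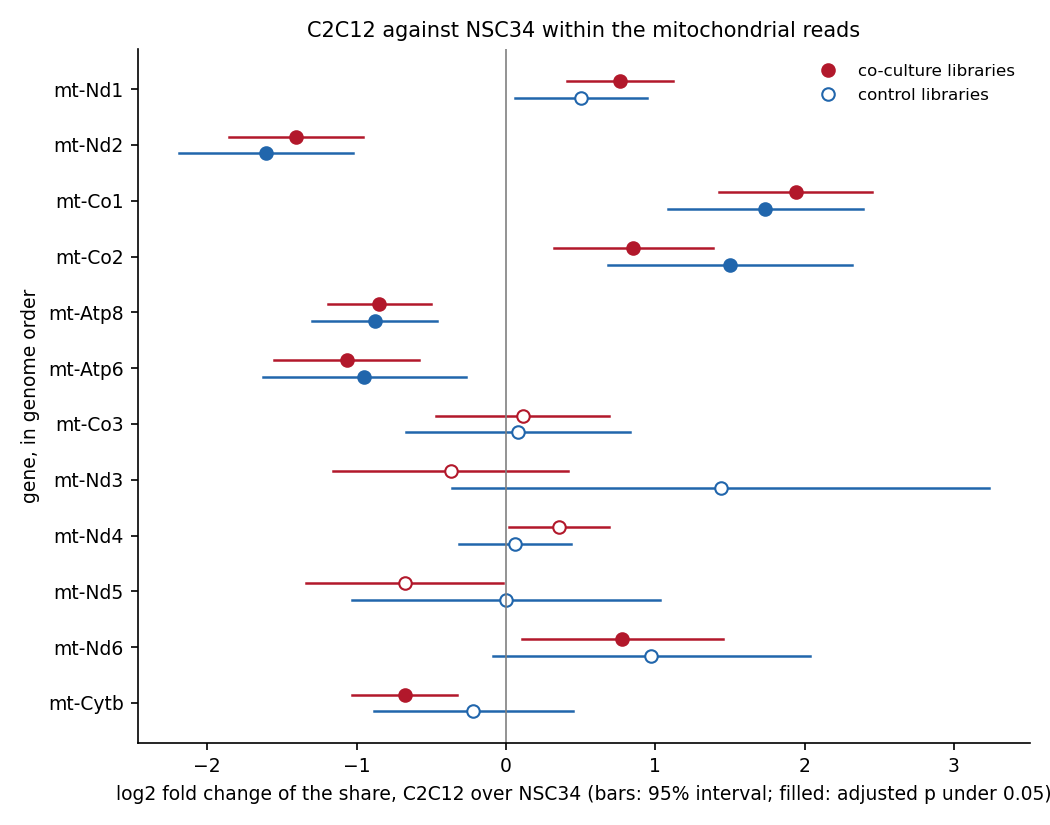
Log2 fold change of each gene's share within the mitochondrial reads, C2C12 over NSC34, in co-culture libraries (red) and control libraries (blue), with 95% intervals and filled points for an edgeR adjusted p under 0.05. Points for mt-Co1 lie at 1.94 and 1.74 and those for mt-Nd2 at -1.41 and -1.61, while mt-Co3 lies near 0 in both.

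On the scale of all genes the calls between the lines differed with the scaling and the filter. The median log2 fold change of all tested genes was 0.38 in co-culture and 0.94 in control with TMM scaling, against 0.01 and 0.16 with library totals. In co-culture 9 of the 12 genes passed (52.3% of tested genes, 35.3% higher and 16.9% lower) and in control 4 (40.4%, 34.6% higher and 5.8% lower). Of these, mt-Co1 was higher in C2C12 by 2.19 and 2.02, mt-Co2 by 1.10 and 1.77 and mt-Nd1 by 1.05 and 0.80, and mt-Nd2 lower with -1.12 and -1.32, in co-culture and in control, by edgeR. In control mt-Nd1 was at 0.00 with library totals (edgeR adjusted p = 0.9998) and at 0.16 with RLE factors (0.666) and DESeq2 (0.661), and it passed in 12 of the 24 fits with 1 library left out. There mt-Co2 was at 0.99 with library totals (edgeR adjusted p = 0.121) and at 1.14 with RLE factors (0.0616) and DESeq2 (0.0702). With no filter mt-Nd2 was at -0.04 in co-culture and -0.07 in control (edgeR adjusted p = 0.965 and 0.913). Without NSC34 control 3 or 5 it was at -0.87 and -0.60 in control (0.0742 and 0.223). The share of higher calls among those of all genes was 67.6% in co-culture and 85.6% in control with TMM, against 51.3% and 56.8% with library totals.

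The co-culture effect itself could be compared between the lines for 12 genes. For 0 of them, and for 0 of 1328 genes on either scale (0%), did the effect differ between C2C12 and NSC34 by edgeR's interaction test, with 160 genes under an unadjusted p of 0.05 for levels and 130 for shares, and DESeq2 gave 0. The smallest p on the level scale was that of mt-Cytb, with a difference of -0.51 in log2 (95% interval -1.01 to 0.00, adjusted p = 0.409 by edgeR). The median difference of all genes was itself -0.46 on that scale, and -0.09 with library totals. For shares it was that of mt-Nd3, with -1.81 (-3.76 to 0.14, edgeR adjusted p = 0.541), a gene with 2 reads in NSC34 control.

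Among the nuclear partners of these genes in C2C12 co-culture, 2 subunit isoforms of complex IV rose. Of 82 nuclear genes for respiratory chain and ATP synthase subunits 79 were tested, 2 rose, 0 fell and 77 did not pass, with a median log2 fold change of 0.14 against 0.00 for all tested genes. Among all 2570 tested genes 0.817% rose and 0.623% fell. The genes that rose were Cox8b, the complex IV subunit isoform of heart and skeletal muscle, with 402 ± 35.3 CPM in co-culture and 240 ± 45.8 CPM in control (log2 fold change 0.77, SE 0.117, edgeR adjusted p = 0.0023), and its widely expressed isoform Cox8a, with 2464 ± 208 and 1896 ± 250 CPM (0.38, SE 0.0877, edgeR adjusted p = 0.0347; SD, n = 6). Next in p came Cox5b, another complex IV subunit, at 0.35 and Ndufb2, of complex I, at 0.43, both with an edgeR adjusted p of 0.0545. Summed over the list, these nuclear subunits held 51951 to 57151 CPM in C2C12 co-culture and 45543 to 51371 CPM in C2C12 control. The 6 co-culture libraries lay above the 6 controls, unlike the summed mitochondrial mRNAs above, which overlapped. Of the other lists below, the summed skeletal muscle markers also lay apart in C2C12, while the summed mitochondrial ribosomal protein, RNA machinery, neuron and fibroblast lists overlapped. How often such sums lie apart among genes at large was not tested. Of the 80 mitochondrial ribosomal protein genes 58 were tested and 0 passed (median 0.05), with Mrpl57 at 0.49 (edgeR adjusted p = 0.262), Mrps35 at 0.49 (0.287), Mrps15 at 0.42 (0.416) and Mrpl52 at 0.19 (0.484). Of the genes that copy, cut and stabilise mitochondrial RNA, 55 had reads, 9 were tested and 0 passed (median 0.02). Among them the inner membrane protease Yme1l1 had -0.56 (edgeR adjusted p = 0.274), Hsd17b10, a part of the enzyme that cuts the tRNA 5′ ends, -0.39 (0.375), the mRNA-stabilising protein Slirp 0.16 (0.624) and the DNA-binding protein Ssbp1 0.19 (0.683).

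Some markers of muscle differentiation rose in the same libraries, while most of those tested did not pass. Of 13 tested skeletal muscle markers 3 rose in C2C12 co-culture, Ckm, Tnnt1 and Myog, with log2 fold changes of 0.64, 0.45 and 0.43 (edgeR adjusted p = 0.00268, 0.0139 and 0.0457), and 0 fell. Of all 2570 tested genes 0.817% rose and 0.623% fell. On the same list Myh3 had fewer reads in co-culture, 646 against 748 in control. The summed muscle list held 26194 to 29517 CPM in co-culture and 21760 to 26119 CPM in control, without overlap. Of 4 tested fibroblast markers 1, Col1a2, fell (-0.56, edgeR adjusted p = 0.0365), with summed levels of 1511 to 1829 CPM in co-culture and 1712 to 2210 CPM in control. The summed neuron list held 190 to 222 CPM in co-culture and 189 to 248 CPM in control. On it Stmn3 had 0 reads in both, as did Chat, which had only 1 read in NSC34. The genes that led the list in NSC34 had reads in C2C12 co-culture and control, 19 and 12 for Uchl1, 93 and 97 for Tubb3 and 1 and 0 for Prph. The part of these markers in the results above was not tested. In NSC34 co-culture 4 of the nuclear respiratory subunits, 1 mitochondrial ribosomal protein gene and 0 of the other machinery were tested, and 0 passed. The summed nuclear subunits held 49341 to 57357 CPM in NSC34 co-culture and 22727 to 46229 CPM in NSC34 control, the lowest value being that of control 1 with 88 reads. These ranges did not overlap either.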

How the data were processed

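Per the labels' protocols, total RNA was extracted with Trizol and read on a Nanopore MinION. The authors deposited raw read counts for each Ensembl transcript, 1 table per line, with 0 columns unmatched. The build is GRCm38, per the submitters' processing notes. The sources used here name no aligner, counter, annotation release or strand setting. IDs without version were looked up in GENCODE M21 (37415 of 37677 matched in C2C12 and 10374 of 10427 in NSC34). IDs without a match held 0.224% and 0.239% of the reads and were left out, and counts were summed per gene.

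Tests used edgeR 4.0.16 in R 4.3.3 (filterByExpr, TMM, quasi-likelihood), within each line for co-culture and on the joined tables for lines and the interaction, with Benjamini-Hochberg adjustment over all tested genes and a threshold of 0.05. For shares, the same genes were fitted with the mitochondrial reads as library size, which for nuclear genes gives a ratio to the mitochondrial reads. The spread was estimated over all tested genes together, so p-values for shares also carry the spread of these ratios. SE and intervals were derived from the p. CPM are scaled to all reads of a library. DESeq2 1.42.0 was an alternative, as were other scalings, filters, a replicate block and each library left out. Sequence copies were found with BLAST+ 2.17.0 (100 bases, 90% identity), and binomial intervals with scipy 1.17.1. The fits were tested on simulated data. Mitochondrial genes, lists and the naming rule (all mt- genes, nuclear copies with 20 reads, and 4 genes of smallest p per list) were chosen with earlier results of these data known. The labels do not state that replicate numbers pair the libraries, and correlations of same-numbered libraries showed no clear pairing, though they cannot exclude it. The main fits used no pairing.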

Additional observations from a re-analysis of the deposited data

Results flagged for a closer look

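Looked at were 52 combinations of a gene and a group, and the mitochondrial percent of all reads in 4 groups, 56 in all. Of these 7, all of them gene shares, held a library whose value stood apart from the other 5 of its group. The rule flags about 1 in 20 by chance for normal values of like precision. Depth differs between these libraries and shares within a library depend on each other, so the 7 are not set against that rate. C2C12 co-culture 6 held 4.69% mt-Co3, with the next library at 3.51%. C2C12 control 1 held 0.323% mt-Nd4l, on 13 reads, with the next at 0.137%. NSC34 co-culture 4, with 89 mitochondrial reads, held 13.5% mt-Co3, the next being at 4.52%, and 13.5% mt-Nd4, the nearest being at 33.2%. NSC34 control 1 held 60% mt-Atp8, which is 3 of 5 reads. NSC34 control 6 held 4.35% mt-Nd4l, which is 1 of 23 reads, and 39.1% mt-Cytb, which is 9 of 23.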

How the results depend on the processing

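Counts of all genes past the threshold moved with these settings. For levels in C2C12 co-culture, 37 became 67 with DESeq2 and 106 with no filter, and 11 to 74 when 1 library was left out (lowest without control 3, highest without control 5). For shares there, 34 became 76 with no filter and 8 to 51 with 1 library left out. In NSC34 co-culture, 0 became 2 for shares with a mean count of at least 10, and 0 to 1 (levels) and 0 to 2 (shares) with 1 library left out. For levels between the lines in co-culture, 694 became 2109 with no filter and 432 to 947 with 1 library left out. In control, 536 became 325 with RLE factors, 310 with library totals, 284 with DESeq2, 1373 with no filter and 298 to 880 with 1 library left out. For shares, 644 in co-culture became 1004 with no filter, and 401 to 848 with 1 library left out, and 431 in control became 287 with DESeq2 and 220 to 390 with 1 library left out. The interaction on levels gave 0 to 10 with 1 library left out.

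Reversed calls were all on the level scale between lines: mt-Cytb in control at -0.68 with library totals and -0.51 with DESeq2, and with no filter mt-Atp8 in control at 0.67 and mt-Atp6, mt-Atp8 and mt-Cytb in co-culture at 0.30, 0.54 and 0.73. The cause was not tested. With no filter mt-Atp6 in control no longer passed for shares (edgeR adjusted p = 0.147). On the share scale mt-Co1, mt-Co2 and mt-Nd2 passed in both conditions under every alternative run. Of these, mt-Co1 and mt-Co2 were under the filter within NSC34 alone, the line where they are lower. In NSC34 control they had 20 and 10 reads, so their passing under the alternatives adds no separate support. In 2023 settings a mitochondrial gene passed neither in the reported fit nor in the alternative, and in 215 of these its sign differed. With the replicate block the counts were 26 and 33 in C2C12 and 0 and 0 in NSC34 (levels and shares), 678 and 656 between lines in co-culture, 536 and 431 in control, and 0 for the interaction. Correlations of same-numbered libraries ran from -0.054 to 0.105 in C2C12 and from -0.232 to 0.325 in NSC34, and not every library correlated best with its own number. Leaving out ribosomal RNA and tRNA genes changed nothing, since they have no row. Depth limits NSC34, where 49 genes could be tested.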
